A study of Mus musculus with 16 samples.

Results

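In the mouse submandibular gland, 1895 places in the genome carried a CUT&Tag region of Bmal1 with a region of Nr1d1 and a region of Dbp each within 200 bp of it. These shared regions were chosen by the deposited summits alone. A region of a target was a summit of replicate 1 with a summit of replicate 2 of the same target within 200 bp, placed at the midpoint, and a shared region was a Bmal1 region with an Nr1d1 region and a Dbp region within 200 bp. They made up 24.9% of the 7624 Bmal1 regions, 52.3% of the 3621 Nr1d1 regions and 22.4% of the 8468 Dbp regions on chromosomes 1 to 19 and X, out of 13131 regions of any target. A further 1725 Bmal1 regions had Dbp without Nr1d1, 698 had Nr1d1 without Dbp and 3306 had neither.

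CUT&Tag uses an antibody to bring a transposase to chromatin around a protein, and a summit is the point of highest signal of a peak. The 6 lists, 2 for each target, came from glands labelled as control, untreated tissue, digested with collagenase and trypsin. The labels write the target in the genotype field ("Bmal1 mouse") and name neither an antibody, a clock hour nor a control library. RNA was sequenced from glands of mice aged 6 to 8 weeks, labelled WT, in 5 groups of 2 libraries: untreated glands of ZT3, of ZT9 and of ZT15, where zeitgeber time (ZT) counts hours from lights on, and glands taken 6 h or 24 h after irradiation with 5 Gy. Nothing in the labels says that replicates were separate animals or when in the day the irradiated glands were taken, so p-values measure the spread between these libraries, and irradiation and clock hour cannot be told apart. The ZT3 libraries carry T0 in their description, and ZT3 was taken as the control for 24 h and ZT9 for 6 h.

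Bmal1, the product of Arntl, pairs with Clock on E-boxes (CACGTG) and switches on the Per, Cry and Rev-erb genes, whose products feed back on the clock. Nr1d1 and Nr1d2 (REV-ERB alpha and beta) are repressors that bind elements built on the letters AGGTCA, shared with the ROR activators, and hold down Arntl. Below, a REV-ERB/ROR element means these letters alone, whatever bases lie beside them. Dbp, with Tef and Hlf, belongs to the PAR bZIP family, activators that bind the D-box (TTATGTAA) and are opposed by Nfil3. In tissues such as the liver these arms meet on many of the same genes, which spreads the phases of clock output over the day.

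The shared regions at 6 clock genes are shown first, because their promoters differ in which of these elements they hold. Each sequence is the stretch within 100 bp of the shared region that RefSeq's promoter window covers (250 bases before to 50 after a gene start, build GRCm38.p6, which shares its coordinates with the mm10 of the files). Capitals mark an element on either strand, TGACCT being AGGTCA read on the other strand.
Per1, chr11:69098699-69098880, plus strand: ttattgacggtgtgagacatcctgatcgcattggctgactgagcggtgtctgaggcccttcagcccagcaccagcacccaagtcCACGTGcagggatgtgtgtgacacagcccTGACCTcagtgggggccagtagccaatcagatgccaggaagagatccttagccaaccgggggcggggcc
Per3, chr4:151044741-151044915, minus strand: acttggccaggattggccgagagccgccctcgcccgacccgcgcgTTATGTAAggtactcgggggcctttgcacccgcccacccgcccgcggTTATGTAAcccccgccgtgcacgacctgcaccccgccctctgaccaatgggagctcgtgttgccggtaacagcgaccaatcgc
Nr1d2, chr14:18239057-18239234, minus strand: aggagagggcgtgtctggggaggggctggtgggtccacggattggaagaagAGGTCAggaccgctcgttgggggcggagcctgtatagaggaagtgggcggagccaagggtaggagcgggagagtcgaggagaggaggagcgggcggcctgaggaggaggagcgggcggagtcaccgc
Nampt, chr12:32820085-32820234, plus strand: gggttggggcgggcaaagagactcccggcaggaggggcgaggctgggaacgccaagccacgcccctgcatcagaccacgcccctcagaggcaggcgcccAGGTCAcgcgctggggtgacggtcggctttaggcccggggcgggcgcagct
Nr1d1, chr11:98775328-98775457, minus strand: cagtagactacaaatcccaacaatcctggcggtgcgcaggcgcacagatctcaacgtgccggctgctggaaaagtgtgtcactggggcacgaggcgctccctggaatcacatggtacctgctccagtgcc
Arntl, chr7:113207215-113207356, plus strand: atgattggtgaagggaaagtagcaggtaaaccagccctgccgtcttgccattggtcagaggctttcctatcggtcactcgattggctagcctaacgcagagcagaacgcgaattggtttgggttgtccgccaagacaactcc

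The Per1 window held an E-box whose centre lay 5.5 bp from the region's position, and a REV-ERB/ROR element. The Per3 window held 2 D-boxes and neither other element, Nr1d2 and Nampt held a REV-ERB/ROR element each, and the Nr1d1 and Arntl windows held none of these exact letters. A match is a description of the letters and not of binding.

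Of 32 genes on lists of the core clock, the PAR bZIP family and clock output, 12 had a shared region within 10 kb, and these carried 18 shared regions. Counted from a listed start, as for other genes, it was 10 of 28, 35.7%, against 1453 of all 26794 genes with a listed start, 5.42%; the other 4 genes had no listed start and were measured from the ends of the gene, and of these Bhlhe40 and Wee1 had one. The lists were drawn up from genes known as clock genes, and with earlier results of these data known, so no test was made. By role, 6 of 17 core clock genes, 2 of 4 PAR bZIP genes (counting Nfil3) and 4 of 11 output genes had one. Listed genes also had Bmal1 regions with neither partner within 10 kb: Arntl, Cry2, Bhlhe41, Csnk1e, Dbp, Hlf, Nfil3, Tsc22d3 and Sirt1.

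Nr1d1 itself carried the most shared regions of these genes. They lay 20 bp, 1457 bp and 2351 bp downstream of its start, inside the gene, and 8099 bp upstream, and ranked between 57 and 341 of the 1895 by their mean percentile of deposited score over the 6 lists, where the highest scores rank first. Per1, a repressor of Clock and Bmal1, had 3, at 169 bp, 1795 bp and 3981 bp upstream of its nearest listed start. The last lay at position 69094968 of chromosome 11, and those at 169 bp and 1795 bp lay inside the gene, whose listed span begins at 69095108. Its E-box region at 169 bp ranked 830, below the region at 3981 bp, which ranked 335. Per3 had a shared region 176 bp upstream (position 151044841 of chromosome 4). In the Dbp lists it stood at the 0.152 and 0.0291 percentiles and in the Bmal1 lists at 0.107 and 0.564, while in the 2 Nr1d1 lists it stood at 75.6 and 3.97.

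The other shared regions at core genes were single or flanking. Nr1d2 had one 28 bp upstream of its start (position 18239134 of chromosome 14), which ranked 4 of the 1895, and Arntl had one 209 bp upstream (position 113207256 of chromosome 7), which ranked 583. At Arntl the Nr1d1 lists of replicates 1 and 2 gave the region percentiles of 8.33 and 0.146, and the Bmal1 lists percentiles of 6.88 and 48.1. Bhlhe40 (DEC1, a repressor at E-boxes) had shared regions 1014 bp and 1526 bp beyond its opposite ends, and Wee1 (a kinase that delays mitosis) had one 356 bp outside an end, which ranked 25.

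Among the PAR bZIP genes, Tef had a shared region 496 bp upstream of the nearest listed start and Nfil3 had one 6186 bp downstream. Among output genes, Nampt, which makes NAD from nicotinamide, had one 201 bp upstream, and Por, the reductase that serves cytochromes P450, had one 86 bp upstream. Usp2, a deubiquitinase, had one 5754 bp upstream. Distances run from the nearest listed start, and the shared regions of Tef, Nfil3, Por, Usp2 and, above, Arntl lay inside the gene's listed span. Within the regions rebuilt under 7 settings (the rule, another reading of the overlap or a single replicate per target; one of them, replicate 2 as reference, gives the same regions by construction), 7 of the 10 genes with a listed start kept a shared region within 10 kb in all of them; Nr1d2 and Nampt had one in 6 and Por in 5.

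Several central clock genes lay outside the set. Per2 had 2 Bmal1 regions with Dbp and none with Nr1d1 within 10 kb, Cry2 and Coq10b had 1 such region each, and Dbp, Ciart and Fkbp5 had 1 Bmal1 region each with Nr1d1 and without Dbp. Clock, Npas2 and Cry1 had no region of any of the 3 targets within 10 kb. Nfil3 and Per3 also had a Bmal1 region with Dbp alone beside their shared one.

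**Figure D1:**
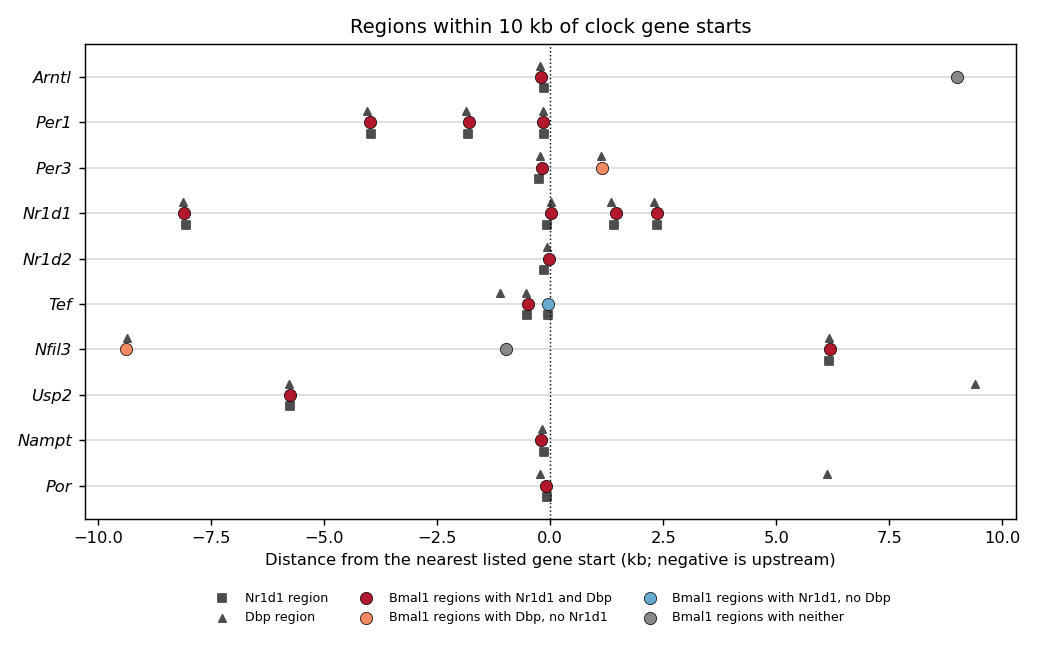
Regions of each target within 10 kb of the nearest listed start of 10 clock genes with a shared region; the x axis is distance in kb, negative upstream, circles are Bmal1 regions coloured by class, squares Nr1d1 and triangles Dbp regions. Nr1d1 holds 4 shared regions and Per1 holds 3, and 7 of the 10 genes have one within 250 bp of their start.

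The highest-ranked shared regions were mostly away from clock genes. The one with the lowest mean percentile (0.0694) lay at position 57391520 of chromosome 16, inside both Cmss1 and Filip1l and 38243 bp from the nearest listed start. The next lay at position 75086869 of chromosome 15, 21292 bp from Ly6c2, a surface antigen of monocytes, and the one after it lay 57 bp from Cbwd1 on chromosome 19. After Nr1d2 came regions 61058 bp from Axin2, an inhibitor of Wnt signalling, and inside Auts2. Ranks 7, 9 and 10 lay 157 bp from Usp20, 245 bp from Wipi1, an autophagy protein that binds phosphoinositides, and 120 bp from Larp1b, and rank 8 lay 281990 bp from the nearest coding gene, Pex2. Thus 4 of the 10 lay within 250 bp of a coding gene's start or end besides Nr1d2.

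By score the median shared region stood above the middle of every list, which is a description since the summits chose the regions. The median percentile was 7.91 and 20.1 in the Bmal1 lists, 6.23 and 27.0 in the Dbp lists and 33.1 and 4.75 in the Nr1d1 lists. The quartiles were 12.3 and 62.6 in replicate 1 of Nr1d1 and 11.5 and 53.1 in replicate 2 of Dbp. The lists differed in length, with 30975 and 19693 summits for Bmal1, 49233 and 10322 for Dbp and 9578 and 38306 for Nr1d1, and within each target the percentile was lower in the longer list. The scale of the score is not given in the sources used here, so it was compared within a list only. The median Bmal1 score of the shared regions was 23.6 in replicate 1 and 8.80 in replicate 2, against 18.8 and 5.92 where Nr1d1 was missing, 15.2 and 6.10 where Dbp was missing and 12.98 and 5.18 where both were.

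**Figure D2:**
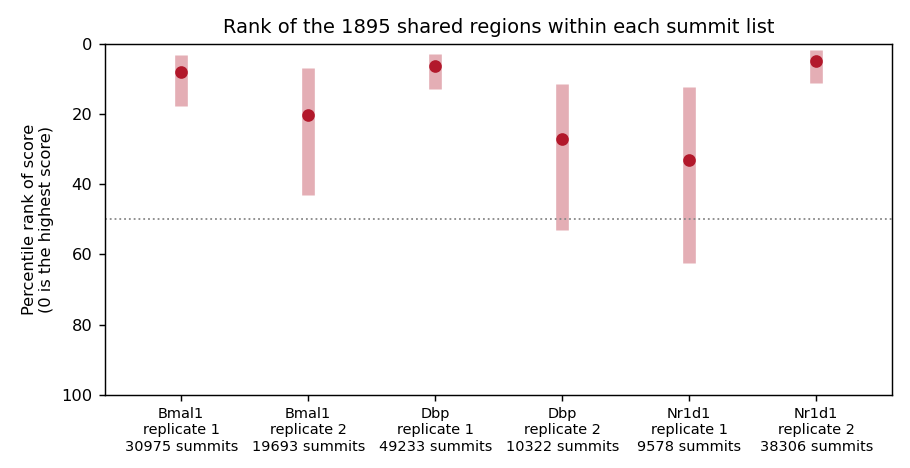
Percentile rank of the shared regions by deposited score within each summit list (y axis, 0 at the top being the highest score); points are medians, bars span the middle of the distribution from the 25th to the 75th percentile of regions, and the dotted line marks the middle of a list. Medians run from 4.75 in the longer Nr1d1 list to 33.1 in the shorter.

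The 3 proteins' positions were close together, as the rule required within 200 bp, so the distances are a description. The median distance was 32 bp from the Bmal1 to the Nr1d1 position and 34 bp from Bmal1 to Dbp, and in 952 regions both lay within 50 bp. The 2 replicate summits of Bmal1 itself lay a median of 43 bp apart. At the 200 bp limit, 59 shared regions had their farther partner at 150 to 200 bp, with median Bmal1 scores of 22.1 and 7.49, and 12 Bmal1 regions just missed with a partner at 200 to 250 bp, with median scores of 18.8 and 8.999. Most shared regions stood alone: with a gap of up to 5 kb, 1781 were single, 48 groups held 2 and 6 groups held 3. The groups of 3 included those at Per1 and at Nr1d1 and Thra (a thyroid hormone receptor gene that overlaps Nr1d1 on the other strand), and others beside Tef, in Sipa1l1 and at Rapgef3. Only 7 shared regions, 0.369%, lay on chromosome X, where the summits of single lists put between 0.345% and 1.93%.

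Gene starts held a sizeable part of the shared regions. Within 1 kb of a listed start were 708 of them, 37.4% (exact 95% interval 35.2% to 39.6%), against 39.6% of Bmal1 regions with Dbp alone (37.3% to 41.9%), 18.9% with Nr1d1 alone (16.1% to 22.0%) and 26.9% with neither (25.4% to 28.4%). The intervals cover counting error only, and regions are not replicates of a condition. Of the 708, 78.1% lay upstream of the start, at a median offset of -93 bp. A further 732 lay elsewhere inside a gene and 455 outside any gene; exons and introns were not analysed here. Split by rank into groups of 632, 631 and 632, the shared regions had 43.2%, 37.6% and 31.3% within 1 kb of a start, from the highest ranks to the lowest.

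Sequence was not used by the rule, so the elements in it can be set beside the classes. In the 645 promoter windows that held a shared region (528 regions, 616 genes), an E-box was found in 107, 16.6% (exact 95% interval 13.8% to 19.7%). Windows with a Dbp region and no Bmal1 region had one in 4.43% (3.18% to 5.98%) and those with an Nr1d1 region and no Bmal1 region in 3.28% (1.21% to 6.999%). Their mean GC content was 61.5% and 63.7%, against 64.6% at the shared regions. Over all 32619 promoter windows, of mean GC content 53.9%, the share was 7.20%. The E-box holds a CG pair, and the median count of CG pairs per window was 26 at the shared regions and 7 over all promoters. It was 21 and 24 in the Dbp and Nr1d1 windows without a Bmal1 region.

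Within the Bmal1 regions, the shared ones had the lowest share of windows with an E-box. Windows with Bmal1 and Dbp alone held one in 21.7% (18.5% to 25.1%), with Bmal1 and Nr1d1 alone in 17.9% (11.2% to 26.6%) and with Bmal1 alone in 41.2% (37.4% to 45.2%), and only the last interval lay clear of that of the shared regions. Mean GC content was 63.5% to 64.6% in these 4 classes. Around the shared regions E-boxes were densest near the position: 1.01 per kb within 25 bp, 1.24 at 25 to 50 bp, 0.811 at 50 to 100 bp, 0.466 at 100 to 150 bp and 0.104 farther out, against 0.269 over all promoter windows. Around Bmal1 regions with neither partner the density within 25 bp was 3.32 per kb.

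The elements of the other 2 proteins were at shares whose intervals held those of all promoters. A REV-ERB/ROR element stood in 14.1% of the windows (11.5% to 17.0%), against 16.2% of all promoters, 12.8% with Bmal1 alone and 10.4% with Nr1d1 without Bmal1. Its density varied between 0.389 and 0.605 per kb with no fall away from the position, against 0.619 over all promoters. A D-box stood in 3 of the 645 windows, 0.465% (0.0960% to 1.35%), those of Per3 and of 2 predicted or clone-named genes, against 0.944% of all promoters and 2.44% of windows with a Dbp region and no Bmal1 region (1.53% to 3.67%). With Bmal1 and Dbp alone it was 0.955%, and with Nr1d1 alone or neither partner 0%. The D-box is nearly all A and T, and mean GC content was 64.6% at the shared regions against 53.9% over all promoters. The share over all promoters is thus no background of like composition. Windows overlap, so the same bases can count more than once: the 5 D-box matches were 3 distinct places, and the 133 E-box matches 106. All D-box matches lay within 50 bp of a position, 2 within 25 bp (0.0635 per kb) and 3 at 25 to 50 bp (0.101 per kb), against 0.0331 per kb over all promoters, which is too few for a density. In all, 461 of the 645 windows held none of the 3 elements and 17 held both an E-box and a REV-ERB/ROR element. These counts are of exact letters, so variants of an element do not enter them, and AGGTCA was counted whatever bases lay beside it.

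**Figure D3:**
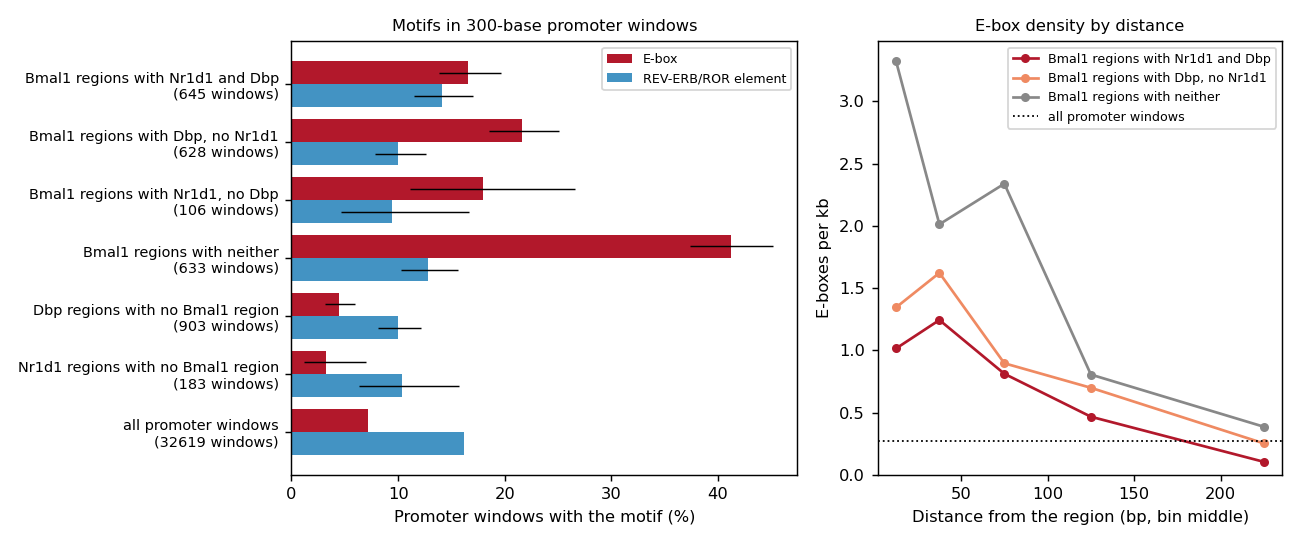
Left, share of 300-base promoter windows with an E-box (red) or a REV-ERB/ROR element (blue) by the class of region they hold, with exact 95% intervals of counting error for the region classes. Right, E-boxes per kb against distance from the region's position in bp, the dotted line being all promoter windows; the shared regions fall from 1.24 to 0.104 per kb.

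The RNA libraries were first checked for what they contain. The water channel Aqp5 of acinar cells (134 to 541 FPKM) and the keratin Krt18 (248 to 545 FPKM) were present in every library, FPKM being fragments scaled to transcript length and library size. Other acinar products varied far more, Prol1 from 0 to 56742 FPKM, Muc19 from 0.274 to 2863 FPKM, Smgc from 27.6 to 2768, Dcpp2 from 4.40 to 33675 and Dcpp3 from 15.6 to 20856. The granular tubule marker Ren1 (0.0588 to 124 FPKM) and the parotid amylase Amy1 (12.8 to 19203 FPKM) varied widely, Ms4a1, a B cell marker, ran from 0 to 31.0 FPKM, and haemoglobin Hbb-bs from 19.4 to 243 FPKM. Y-linked transcripts were at a mean of 18.7 to 30.7 FPKM in both ZT3 libraries, replicate 2 of ZT15 and replicate 1 of each irradiated group, and listed at 0 in the other 5, both ZT9 libraries among them. The total was 791786 to 1174465 FPKM per library; read depth is unknown. In such bulk tissue, fewer cells of a type and less RNA per cell cannot be told apart.

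Of 36 marker genes of gland, immune and blood cells, 2 had a shared region within 10 kb, against 5.42% of all genes with a listed start. They were 2 of the 8 acinar markers, too few to set the acinar list apart. Bhlha15 (Mist1), a transcription factor of secretory cells, had one 5426 bp upstream. Prol1, a secreted acinar product, had one 79 bp upstream, and its ZT3 libraries had 27078 and 26064 FPKM. The ZT9 libraries had 56742 and 42681 FPKM, those of ZT15 39970 and 22178, those of 6 h 31229 and 22708, and those of 24 h 0 and 50123. The listed 0 stood in replicate 1 at 24 h alone.

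Genes at shared regions had a higher median level than the genes tested as a whole. A shared region lay within 1 kb of the start of 874 genes, of which 795 matched a symbol in the files and 724 passed the filter of at least 1 FPKM in at least 2 libraries. Their median level was 15.03 FPKM, against 7.59 FPKM over all 15161 genes that passed. In the same groups by rank of the region, from the highest ranks to the lowest, median levels were 14.9, 14.4 and 12.5 FPKM.

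Across ZT3, ZT9 and ZT15, no gene at a shared region was called at this replication. The limma F test with Benjamini-Hochberg adjustment called 0 of the 724 and 0.0198% of all genes tested. At an unadjusted p under 0.05 it gave 103 of the 724, 14.2%, against a background of 13.1% over all genes, so the share near shared regions was close to the background. Of those 103, 44 were highest at ZT3, 31 at ZT9 and 28 at ZT15, or 42.7%, 30.1% and 27.2%, against 42.1%, 30.2% and 27.6% of the 1986 genes at that level overall. Of the 12 clock genes with a shared region, 9 had an unadjusted p under 0.05, as had 12 of the 19 tested clock genes without one.

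The clock genes with a shared region differed in when they were high. Both ZT3 libraries held Y-linked transcripts and neither ZT9 library did, so time of day and sex cannot be told apart between ZT3 and ZT9; with a Y-linked term the smallest adjusted p of Arntl, Per3, Nr1d1, Gpr155 and Suco below was 0.454 (limma F test). Arntl had 9.41 and 15.6 FPKM at ZT3, 0.803 and 0.855 at ZT9 and 3.44 and 2.59 at ZT15. The ZT3 libraries stood above all others, and ZT9 differed from ZT3 by -2.84 on the log2(FPKM + 1) scale (limma F test, adjusted p = 0.0885, smallest p of the 724). Per3 ran the other way, with 4.05 and 1.60 FPKM at ZT3, 29.5 and 20.5 at ZT9 and 13.2 and 14.3 at ZT15 (limma, adjusted p = 0.180). The 3 times did not overlap in either gene.

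Nr1d1 was highest at ZT9 and lowest at ZT15. It had 27.1 and 12.9 FPKM at ZT3, 67.8 and 51.5 at ZT9, and 3.47 and 9.11 at ZT15 (limma F test, adjusted p = 0.194), again with no overlap between times. Whether the FPKM used strand is not stated, so fragments from the stretch where Nr1d1 and Thra overlap cannot be assigned here. Its relative Nr1d2 swung less, with 36.7 and 22.8 FPKM at ZT3, 47.3 and 55.0 at ZT9 and 30.7 and 40.2 at ZT15, where ZT3 and ZT15 overlapped. Per1 had 6.60 and 6.92 FPKM at ZT3, 24.7 and 21.2 at ZT9 and 18.3 and 15.3 at ZT15. By mean level, 8 of the 12 clock genes were highest at ZT9, 3 at ZT15 and 1, Arntl, at ZT3.

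Tef, the PAR bZIP activator, had 29.4 and 15.98 FPKM at ZT3, 72.3 and 105 at ZT9 and 56.5 and 63.9 at ZT15. Usp2 followed the same order, with 7.83 and 5.89 FPKM at ZT3, 34.7 and 28.6 at ZT9 and 22.5 and 19.5 at ZT15, and so did Wee1, at 4.45 and 3.26, 12.2 and 10.1, and 11 and 9.26 FPKM, where ZT9 and ZT15 overlapped. ZT3 lay below both later times in all 3 genes. Nfil3, the antagonist of PAR bZIP factors, had 29.5 and 10.7 FPKM at ZT15, where the lower library overlapped the ZT3 values of 7.83 and 11.6 FPKM.

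Bhlhe40, Nampt and Por had the largest F test p-values of the 12. Bhlhe40 lay between 18.8 and 42.5 FPKM, Nampt between 11.3 and 15.3 FPKM and Por between 28.4 and 46.6 FPKM over the 6 unirradiated libraries. In Bhlhe40 and Nampt the ZT3 libraries lay below the later times, which overlapped, and in Por ZT9 overlapped both other times. Their unadjusted limma F p-values were 0.0966, 0.359 and 0.370.

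Gpr155, a cholesterol-sensing membrane protein of the lysosome, and Suco, a protein linked to bone formation in mice, were the other genes among the 5 of smallest p. Gpr155 had a shared region 162 bp upstream of its start (position 73386642 of chromosome 2), which ranked 21, with a REV-ERB/ROR element in its window. It had 87.6 and 59.0 FPKM at ZT3, 83.0 and 120 at ZT9 and 277 and 240 at ZT15 (limma F test, adjusted p = 0.180), and only ZT15 stood clear of the others. Suco had a shared region 183 bp upstream and followed Arntl, with 32.3 and 50.8 FPKM at ZT3, 4.02 and 5.67 at ZT9 and 8.92 and 14.3 at ZT15.

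**Figure D4:**
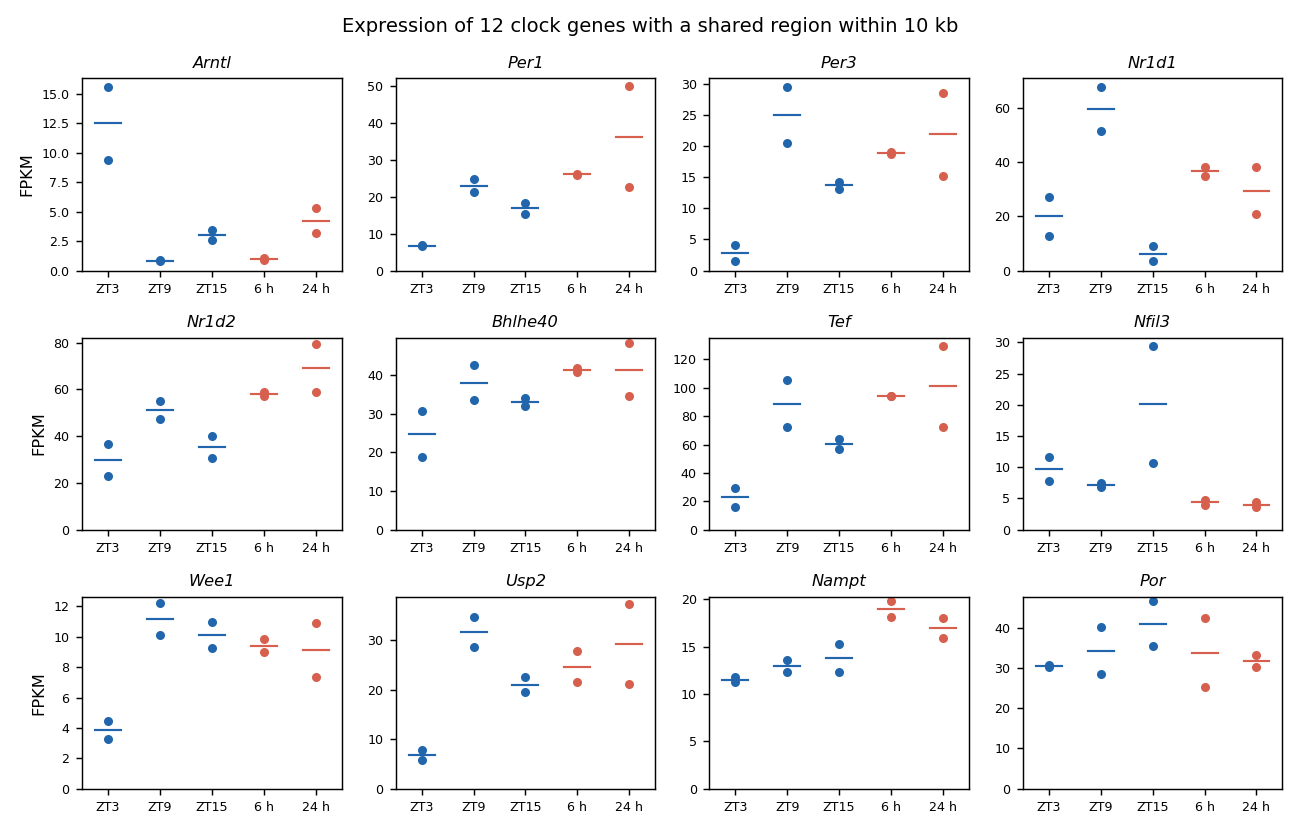
FPKM (y axis, from 0) of the 12 clock genes with a shared region within 10 kb in each of 2 libraries per group; points are libraries, bars group means, blue unirradiated and red irradiated. Arntl is highest at ZT3 and 8 genes are highest at ZT9; at 6 h and 24 h Arntl lies between 0.861 and 5.31 FPKM.

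At 6 h after 5 Gy, 5 of the 724 genes at shared regions were called against ZT9 by limma with Benjamini-Hochberg adjustment. Of these 4 were higher, 0.552%, against a background of 0.475% of all genes, and 1 was lower, against 0.0396%. Both shares rest on few genes, and the first is near the background. At an unadjusted p under 0.05 limma gave 88 of the 724, 12.2%, against a background of 12.2% of all genes. The median log2 change was 0.12 among the 724 and 0.12 over all genes tested, and 65.7% and 64.3% were higher.

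Btg2, an antiproliferative gene induced by p53, had 13.1 and 7.26 FPKM at ZT9 and 40.5 and 42.2 at 6 h, a log2 change of 1.97 with a standard error of 0.25 (limma, adjusted p = 0.0235). Its shared region lay 110 bp upstream of its start (position 134079265 of chromosome 1), ranked 1200, and its window held a REV-ERB/ROR element. Tubb4b, a beta tubulin, had 56.8 and 74.8 FPKM at ZT9 and 154 and 178 at 6 h (log2 change 1.33, limma adjusted p = 0.0337). Every unirradiated library of both genes lay below both 6 h libraries.

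Susd6, a membrane protein also induced by p53, had 12.3 and 18.4 FPKM at ZT9 and 40.5 and 38.7 at 6 h (log2 change 1.34, limma adjusted p = 0.0367), with a shared region 48 bp upstream. Sppl2a, a protease that cuts membrane proteins, had 35.6 and 38.7 FPKM at ZT9 and 83.2 and 79.4 at 6 h (log2 change 1.11, limma adjusted p = 0.0403), with a shared region 210 bp downstream. In these genes too the 6 h libraries stood above all 6 unirradiated ones. Slc1a4, a transporter of serine and alanine, was the gene that fell, from 11.7 and 8.29 FPKM at ZT9 to 3.05 and 1.94 at 6 h (log2 change -1.66, limma adjusted p = 0.0352). Its ZT3 values of 2.77 and 2.999 FPKM lay within the 6 h range, and against ZT3 its change was -0.17 (limma adjusted p = 0.798).

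The 6 h calls depend on the libraries in the fit. The count of 5 fell to 0 without either ZT3 library, either 6 h library or either 24 h library, to 1 without replicate 1 of ZT9 and to 3 without replicate 1 of ZT15; it was also 0 with a term for Y-linked transcripts, with ZT15 as control, or with the compared libraries alone, and 2 under median-of-ratios or quantile scaling. Btg2 was called in 10 of 20 alternatives, with log2 changes from 0.89 to 2.36, Tubb4b in 7 of 20, Sppl2a in 5 of 20, Susd6 in 3 of 20 and Slc1a4 in 4 of 19.

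At 24 h after 5 Gy, 3 of the 724 genes were called against ZT3, all higher: Gpr155, Per3 and Per1. They made up 0.414%, below the background of 0.462% higher over all genes, and 0 were called lower, against 0.033%. At an unadjusted p under 0.05 limma gave 156 of the 724, 21.5%, higher and lower together, against a background of 17.9% of all genes. Within 1 kb of Bmal1 regions with neither partner it was 21.8%, with Dbp alone 19.6% and with Nr1d1 alone 18.8%. The median log2 change was 0.22 among the 724 and 0.21 over all genes, and 78.5% and 71.4% were higher.

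Per1 rose from 6.60 and 6.92 FPKM at ZT3 to 22.7 and 49.8 at 24 h, a log2 change of 2.16 with a standard error of 0.32 (limma, adjusted p = 0.0385). Against ZT9 its change was 0.54 (limma adjusted p = 0.318) and against ZT15 0.97 (limma adjusted p = 0.131). Per3 rose from 4.05 and 1.60 FPKM to 15.2 and 28.6 (log2 change 2.60, limma adjusted p = 0.0380). The 24 h values of Per3 lie within the span of its ZT9 and ZT15 values, and against ZT9 its change was -0.23 (limma adjusted p = 0.751). Gpr155 rose from 87.6 and 59.0 FPKM to 249 and 254 (log2 change 1.79, limma adjusted p = 0.0306), which lies within its ZT15 range, and against ZT15 its change was -0.035.

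Other clock genes at shared regions went both ways against ZT3. Usp2, whose shared region lay beyond 1 kb, rose from 7.83 and 5.89 FPKM to 21.2 and 37.2 (log2 change 1.90, limma adjusted p = 0.0391), and against ZT9 its change was -0.16. Tef had 72.7 and 130 FPKM at 24 h (log2 change 2.11, limma adjusted p = 0.0613; 0.15 against ZT9, adjusted p = 0.828) and was not called. Arntl had 5.31 and 3.17 FPKM, a log2 change of -1.36 (limma adjusted p = 0.0979), and Nfil3 had 4.38 and 3.64 FPKM, a log2 change of -1.08 (limma adjusted p = 0.233), neither called. The 24 h values of Arntl lay above its ZT9 values of 0.803 and 0.855 FPKM and overlapped its ZT15 values of 3.44 and 2.59. Those of Nfil3 lay below every unirradiated library. Snhg15, a host gene of small nucleolar RNAs with an E-box in its window and a shared region 36 bp upstream, had 30.2 and 34.6 FPKM against 7.03 and 13.2 at ZT3 (log2 change 1.64, limma adjusted p = 0.0516). Both irradiated groups of Snhg15 stood above all 6 unirradiated libraries.

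The 24 h calls also depend on the fit and on the control time. The count of 3 fell to 0 without replicate 1 of ZT3 or either 6 h library, with a term for Y-linked transcripts, under median-of-ratios or quantile scaling, or with the compared libraries alone; it fell to 1 without replicate 2 of ZT3 or either 24 h library and to 2 without either ZT15 library. It rose to 12 and 13 without either ZT9 library, and to 56 with ZT9 as control, where 774 of all genes were called.

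**Figure D5:**
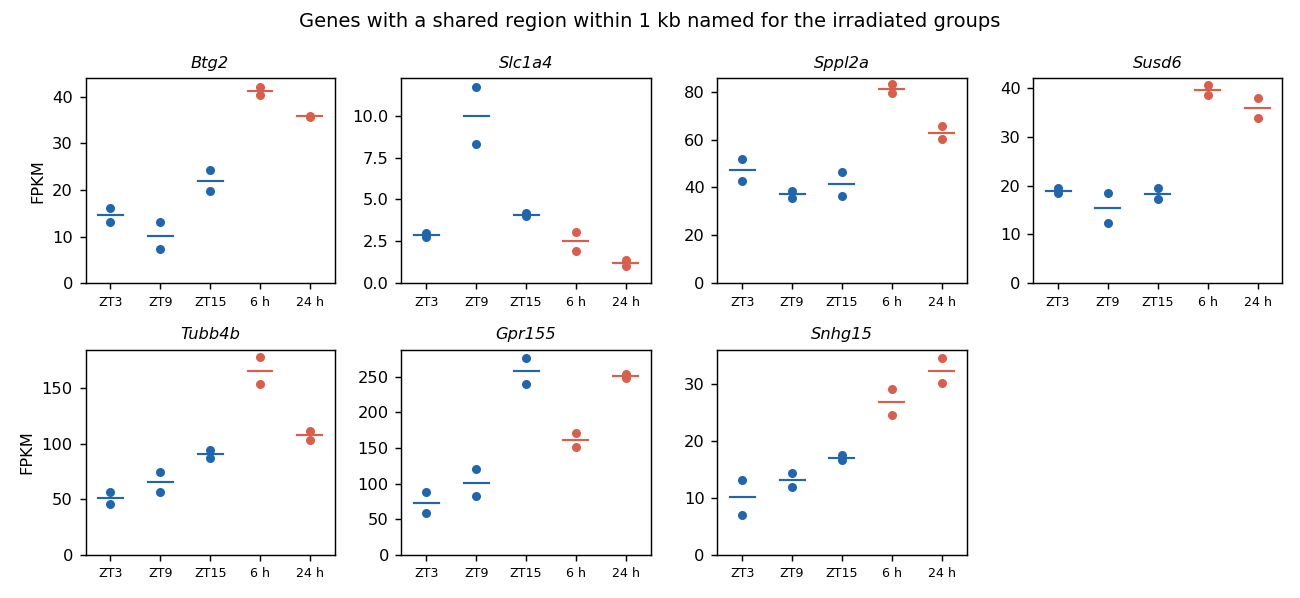
FPKM (y axis, from 0) in each of 2 libraries per group for 7 genes with a shared region within 1 kb named for the irradiated groups; points are libraries, bars group means, blue unirradiated and red irradiated. Btg2, Tubb4b, Susd6, Sppl2a and Snhg15 have both 6 h libraries above all unirradiated ones, while Gpr155 at 24 h lies within its ZT15 range of 240 to 277 FPKM.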

How the data were processed

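Values are as deposited by the authors. For CUT&Tag the deposited lists give summits of 1 bp and a score whose scale is unstated; for RNA the files give FPKM per gene, computed by the authors per the labels' protocols. The submitters' processing notes list Bowtie2, HISAT2, SAMtools and Cufflinks without roles, and mm10 as the build. The peak caller, the tools' versions and the score threshold: not given in the sources used here.

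Regions were built as the report states, on chromosomes 1 to 19 and X, and the rule was tested on simulated summits. Gene starts, spans and promoter sequences came from RefSeq tables of GRCm38.p6; no genome sequence was used, so elements were counted in promoter windows in place of 100 bp around each region. FPKM entries with a repeated symbol (107 symbols) were left out. Genes with at least 1 FPKM in at least 2 of 10 libraries (15161) were fitted as log2(FPKM + 1) with limma 3.58.1 (R 4.3.3; trend, 1 mean per group, 5 residual degrees of freedom, also tested on simulated data), with two-sided Benjamini-Hochberg adjusted p under 0.05 as the call. Fold changes understate those of low genes. Read depth is unknown, and the 2 libraries per group limit precision. Python 3.11.15, numpy 2.4.6, pandas 2.3.3, scipy 1.17.1 and matplotlib 3.10.9 were used.

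The regions, gene lists and comparisons were chosen with earlier results of these data known. Named genes were clock-list genes with a shared region within 10 kb, the 10 shared regions of lowest mean percentile, and, per comparison, called genes within 1 kb (up to 5 rises and 5 falls with a mean of at least 5 FPKM in the higher group and no overlap) or, with fewer than 5, the 5 of smallest p; predicted and clone names were left out. Marker genes and genes without a shared region are named beside them. An item of the clock lists is not reported here.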

Additional observations from a re-analysis of the deposited data

How the results depend on the processing

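The count of 1895 shared regions was 1010 with a 100 bp limit, 1250 with each list cut to its 9578 highest scores, and 3203 to 3810 from 1 replicate per target. The percent within 1 kb of a start (37.4%) was 42.3% with the shortened lists, 31.4% to 37.2% from 1 replicate, and 40.4% with a 2 kb limit. The percent with an E-box (16.6%) was 19.9% and 13.8% to 18.9% under the first 2 of these. The 500 bp limit moved none of these by more than their counting interval or by 1.5 times; replicate 2 as reference returns the same midpoints and so tests nothing. The 50 bp motif window was not run, since promoter windows replaced it (chosen after seeing the data).

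Genes at shared regions called across the day were 0 in all alternatives run. For 6 h (5 calls) the count was 3 without the filter on low values, 2 under median-of-ratios or quantile scaling, 0 with a Y-linked term or the compared libraries alone, 3 against ZT3, 0 against ZT15 (a control chosen after seeing the data), and 0 to 4 without single libraries. For 24 h (3 calls) it was 5, 0, 0, 0 and 0 in the same order, 56 against ZT9, 5 against ZT15, and 0 to 13 without single libraries. Replicate numbers are shared between groups but nothing ties them to animals: correlations of same-numbered deviations ran from -0.141 to 0.473. With the replicate block, 4 genes were called at 6 h and 1 at 24 h. The 24 h changes of Arntl and Nfil3 were not rerun under the alternatives. Among the changes that were, the sign turned only for Gpr155 at 24 h against ZT15 (-0.035), Per3 against ZT9 (-0.23) and Usp2 against ZT9 (-0.16). The clock hour cannot be told apart from irradiation, and the cause was otherwise not tested. Score, peak caller and controls of the lists limit what an overlap can show.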
